A study of Homo sapiens with 5 samples.

Results

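A stretch of distal chromosome 13q (hg19 chr13:109000000-112500000, 3.5 Mb) was examined for binding of ZBTB7A in VCaP cells, using every peak of 3 deposited peak lists whose summit lies in it. It holds 961 of the 196770 peaks of the 3 lists, and 750 of these come from 1 list. The window was chosen by the density of the peaks of that list, made from cells in full serum, so their density in the window is given only as a description. Fixed edges were used, and the borders of the dense block inside them were then located. It is known by the genes COL4A1 and IRS2, but the peaks could not be set against gene positions of the same genome build, and which peak lies in or near which gene was not determined here.

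ZBTB7A-bound DNA had been sequenced after chromatin immunoprecipitation (ChIP-seq) from VCaP, an established line from a vertebral metastasis of prostate cancer that depends on the androgen receptor. In 2 libraries (CSS) the cells had been given vehicle for 4 h in phenol red-free medium with 5% charcoal-stripped serum, which is depleted of steroid hormones. In 2 libraries (DHT) the same medium carried 10 nM dihydrotestosterone, the most potent natural androgen, for 4 h. In 1 library (FBS) the cells stood in 10% full fetal bovine serum, by the culture condition given for it. All 5 libraries share 1 cell line and 1 antibody against ZBTB7A. Each condition has 1 peak list, so no value below has a replicate error, no difference between conditions could be tested, and the intervals given are exact 95% binomial (Clopper-Pearson) intervals that cover counting error only.

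ZBTB7A, also called LRF or Pokemon, is a transcription factor of the POK family. Its BTB/POZ domain mediates dimerization and the recruitment of corepressors, and its zinc fingers contact GC-rich DNA. It is best known for silencing fetal globin genes and for roles in blood cell fate, and in prostate cancer it has been described both as a growth-promoting and as a restraining factor. Of the genes that name the stretch, IRS2 encodes an adaptor protein that carries signals from the insulin and IGF receptors, and COL4A1 encodes a chain of type IV collagen, the network-forming collagen of basement membranes. In the gene order of RefSeq (GRCh38.p14, used for order only), 12 named protein-coding genes run from MYO16 to SOX1. After MYO16, an unconventional myosin, come IRS2, COL4A1 and its neighbour COL4A2, which is transcribed away from the same promoter region. They are followed by RAB20, a small GTPase of membrane traffic, NAXD, an enzyme that repairs damaged NADH, and CARS2, the mitochondrial cysteinyl-tRNA synthetase. ING1, a reader of methylated histone H3, ANKRD10, ARHGEF7, an exchange factor for Rac and Cdc42, TEX29 and SOX1, a transcription factor of neural progenitors, complete the order.

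In the window the CSS list held 102 peaks, 29.1 per Mb, and the DHT list held a similar number, 31.1 per Mb. The FBS list held 214 per Mb. These were 0.270% of all CSS peaks (interval 0.220 to 0.328%), 0.319% of all DHT peaks (0.262 to 0.385%) and 0.601% of all FBS peaks. The DHT share was 1.18 times the CSS share, with an interval of 0.895 to 1.57 that includes no difference, and 0.919 times at a −log10 q of at least 5. The FBS list had 7.35 times as many peaks in the window as the CSS list, where the whole lists differ 3.30-fold. The FBS share was 2.22 times the CSS share, but 1.20 times at a fold enrichment of at least 5, 3.60 times at a −log10 q of at least 10 and 4.02 times with equal numbers of top peaks. Peaks covered 40.6 kb of the window in CSS, 40.1 kb in DHT and 267 kb in FBS, the last being 7.64% of it. The median distance from 1 summit to the next was 13.5 kb in CSS, 20.2 kb in DHT and 3.21 kb in FBS.

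**Figure D1:**
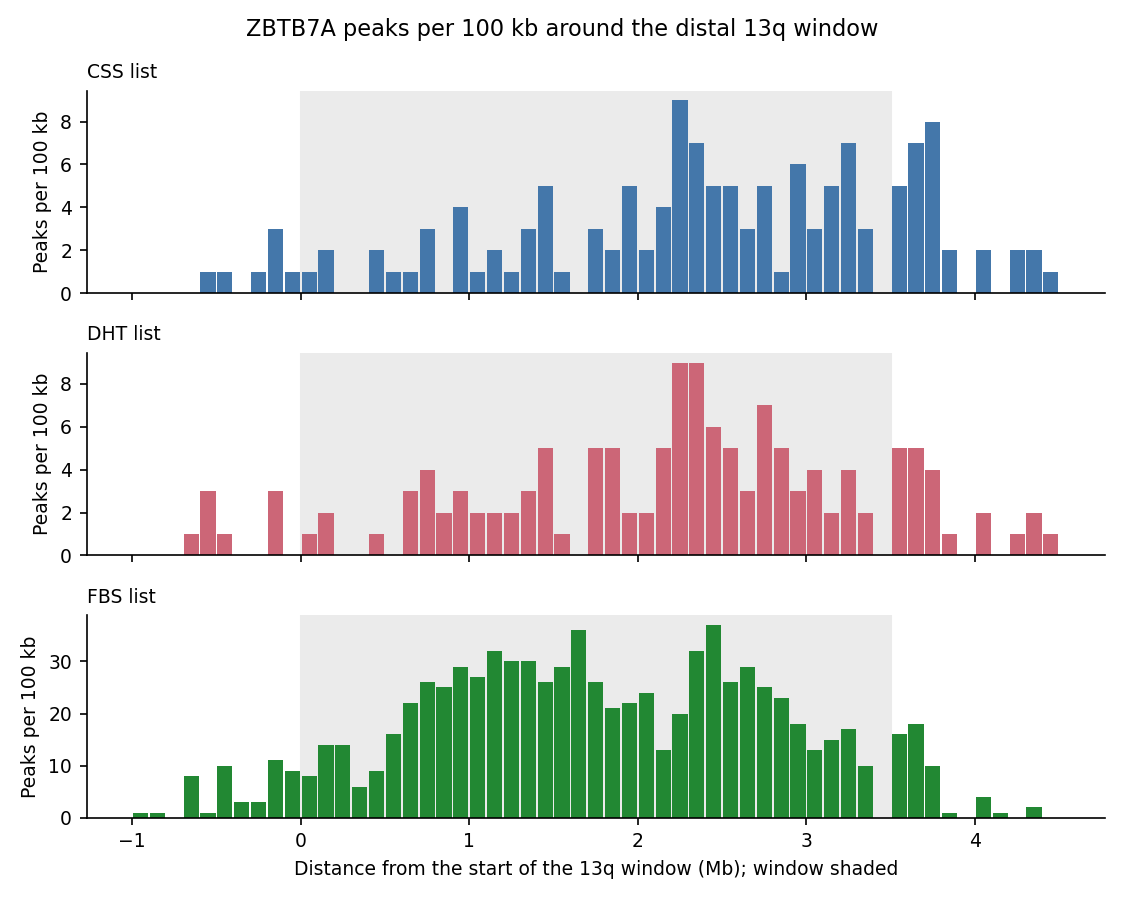
Peaks per 100 kb (vertical axis) against distance from the start of the 13q window in Mb, with 1 panel for each of the CSS, DHT and FBS lists and the window shaded. FBS bins in the window reach 37 peaks, while CSS and DHT bins reach 9; a further group of peaks in all 3 lists lies just past the distal edge.

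The FBS-dense block was bordered with 100 kb bins. A bin was called dense when it held at least 11 FBS peaks, the 95th percentile of 30365 bins over the autosomes and X, where the median bin holds 3. The block ran from the FBS summit at chr13:109506471 to that at chr13:112298503, a length of 2.79 Mb, and all 28 of its bins were dense. It contained 689 of the 750 FBS peaks of the window, with 93 CSS peaks and 103 DHT peaks. The next bin, from 112300001, held 10 FBS peaks. The bin from 112400001 held no peak of any list, and those from 112500001 and 112600001 held 16 and 18 FBS peaks. The distal border thus depends on an empty stretch beyond which dense bins resume. Whether reads can map to that stretch was not examined. Over the whole window the FBS count per bin had a median of 23 and ran from 0 to 37. In both CSS and DHT the median bin held 3 peaks, and 5 of the 35 bins were empty. The CSS and DHT peaks were not spread like the FBS peaks. Between 109.5 and 109.9 Mb the CSS, DHT and FBS lists had 1.25, 2.25 and 22.2 peaks per 100 kb. Between 111.1 and 111.4 Mb they had 6.67, 7.67 and 21.7. These stretches were chosen after the values were seen, and they hold 5 and 20 CSS peaks and 9 and 23 DHT peaks.

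At the proximal edge the density of FBS peaks passed through the rule's limit without a break. The last FBS summit outside lay 2.47 kb before the window, at a fold enrichment of 8.53 (the caller's ratio of reads stacked at the summit to reads expected there), and the first inside lay 2.17 kb after it, at 5.32. At the distal edge no summit of any list fell in the 154 kb between chr13:112353392 and chr13:112507660. The genome sequence was not used here, so whether reads can map to this stretch was not examined. The stretch is therefore not read as a break in binding. The FBS summits that bound it, the last inside the window and the first outside the window, had fold enrichments of 3.01 and 3.41. The last CSS and DHT summits inside were at chr13:112332185 and chr13:112332084, and the first beyond it were at chr13:112548088 and chr13:112534708. Their fold enrichments were 6.76 and 5.03 inside, and 8.31 and 6.65 outside.

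For each peak the authors' fold enrichment and its p-value together fix 2 whole quantities, the number of reads stacked at the summit and the number of reads the caller counted in the surrounding 10 kb. Both could be recovered for 100% of the peaks that lay above the caller's floor, which is the mean of the genome. The floor stood at 13.4 reads per 10 kb in CSS, 9.69 in DHT and 60.2 in FBS, so the FBS list rests on 4.51 times the reads of the CSS list and 6.21 times those of the DHT list, if the same genome size was set for all. Whether the counted reads come from the ChIP library or from a control library is not stated in the sources used here.

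Reads in the 10 kb around the window's peaks stood above the genome mean in all 3 lists. Their median was 5.17 times the mean in CSS, 5.57 times in DHT and 4.38 times in FBS. Taking only the lowest peak of each 100 kb bin, an alternative chosen after seeing the data, gave 2.81, 2.68 and 1.72. The counted reads may include those of the peak itself. With the reads at each summit subtracted, also chosen after seeing the data, the medians were 3.89, 4.33 and 3.97. At peaks on the rest of chromosome 13 the medians were 1.27, 1.55 and 1.0. At least 3 times the genome mean was reached by 80 of 102 CSS peaks (78.4%, interval 69.2 to 86.0%), against 29.3% of all CSS peaks. In DHT 78 peaks (71.6%, 62.1 to 79.8%) reached it, against 35.7% of the list. In FBS 545 of 750 (72.7%) reached it, against 11.5%. The CSS and DHT peaks did not choose the window, and both carried the high value.

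**Figure D2:**
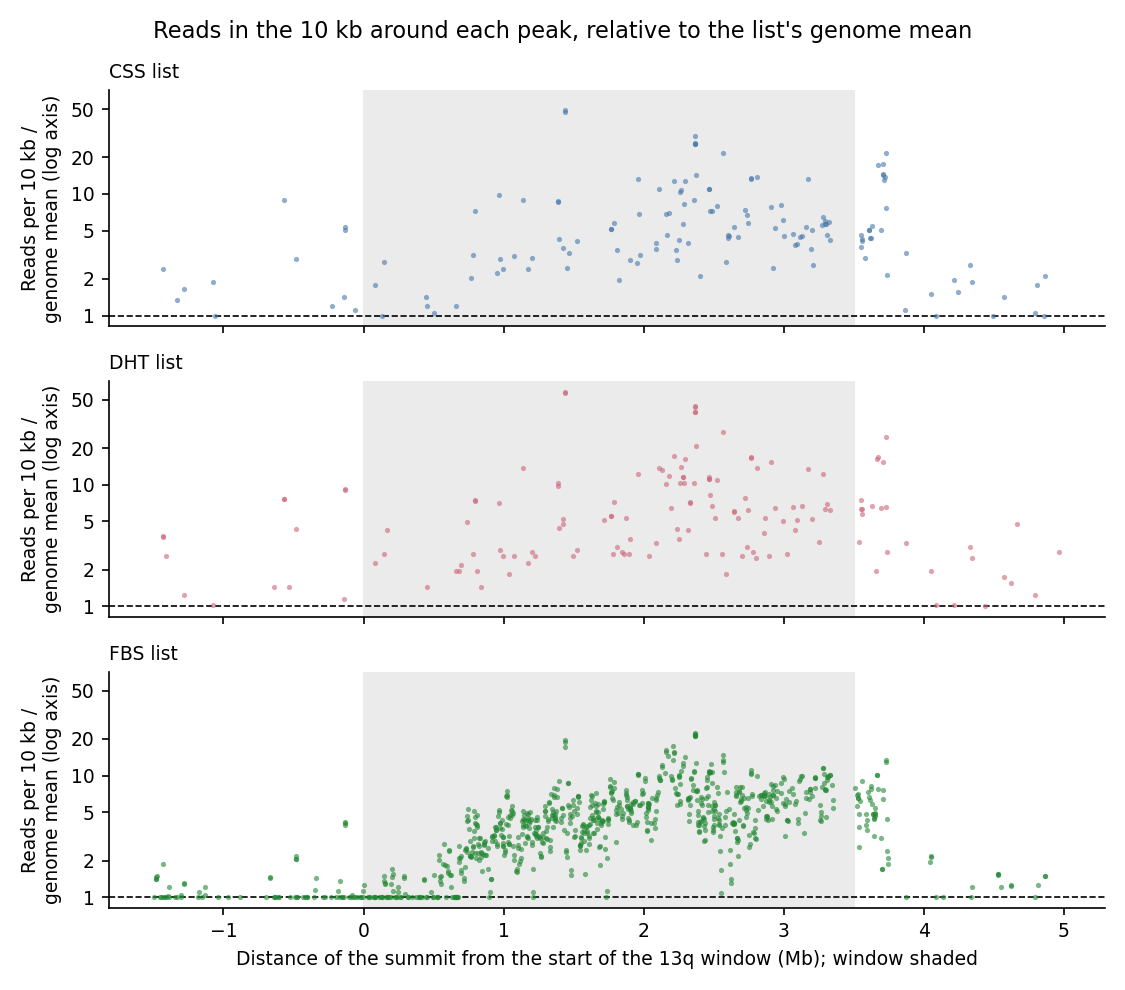
Reads in the 10 kb around each peak divided by the list's genome mean (vertical log axis, dashed line at the mean) against distance from the window start in Mb, 1 point per peak, 1 panel per list, window shaded. FBS points lie on the genome mean at the proximal edge, climb across the window to a median of 9.19 between 111.1 and 111.4 Mb, and stay high past the distal edge before falling back.

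Along the window this background was not level. From chr13:109000001 to 109500000 the 51 FBS peaks had a median at the genome mean, 1.0. From there to 109.9 Mb the median was 2.18, and from 109.9 to 111.1 Mb it was 4.33. It was highest between 111.1 and 111.4 Mb, where the 65 FBS peaks had a median of 9.19, the 20 CSS peaks 9.62 and the 23 DHT peaks 11.7. Between 112000001 and 112400000 it still stood at 7.39 in FBS, 4.87 in CSS and 6.24 in DHT. In FBS, peak density and background did not have their maxima in the same stretch: 27.7 peaks per 100 kb were listed between 109.9 and 111.1 Mb, and 21.7 between 111.1 and 111.4 Mb. In CSS and DHT they did, with 6.67 and 7.67 peaks per 100 kb between 111.1 and 111.4 Mb. The median fold enrichment of FBS peaks was 5.23 in the proximal stretch at the genome mean and 3.07 where the background was highest.

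The elevated reads ran past the end of the window. In the 0.3 Mb up to 112.8 Mb, the 20 CSS, 14 DHT and 44 FBS peaks had medians of 5.02, 6.55 and 5.13 times the genome mean. From 112.8 to 115.2 Mb the medians were 1.5, 1.75 and 1.18. When the block was bordered by reads instead, with bins at a median of at least 2 times the genome mean, it ran from chr13:109717432 to chr13:112743110. This is 3.03 Mb with 705 FBS, 115 CSS and 116 DHT peaks. By reads, the block therefore began 2 bins later than by peak density and ended 5 bins later, on the far side of the stretch without summits. The source of this regional rise in reads was not tested.

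Bins of this kind were uncommon but not confined to 13q. Of the 31 window bins with at least 10 FBS peaks, 20 (64.5%) had a median of at least 4 times the genome mean, and 156 of 2981 such bins in the genome did (5.23%). The highest window bin, at 9.92 times, ranked 20th, and bins of 7 chromosomes stood above it. In 2 other FBS-dense stretches of 3.5 Mb the rise was smaller. On chromosome 6 (18.75 to 22.25 Mb) the medians were 2.70 in CSS, 2.58 in DHT and 2.27 in FBS. On chromosome X (64.75 to 68.25 Mb) they were 1.05, 2.06 and 2.73.

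The window's peaks were taller in reads and, in FBS, lower in enrichment than their lists. A median of 14 reads was stacked at CSS summits, 12 at DHT summits and 25 at FBS summits, against 8, 8 and 12 over the whole lists. Median fold enrichment was 6.35 in CSS and 5.94 in DHT, against 5.58 and 5.70 over the lists, but 3.85 in FBS against 4.56. The median −log10 q was above the list in each case, at 7.85, 6.24 and 5.87 against 4.96, 5.22 and 4.26. A −log10 q of at least 10 was held by 31 CSS peaks (30.4%), 26 DHT peaks (23.9%) and 125 FBS peaks (16.7%), against 14.5%, 11.8% and 4.92% of the lists. Median peak widths were 284, 277 and 303 bp, against 239, 249 and 258 bp.

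**Figure D3:**
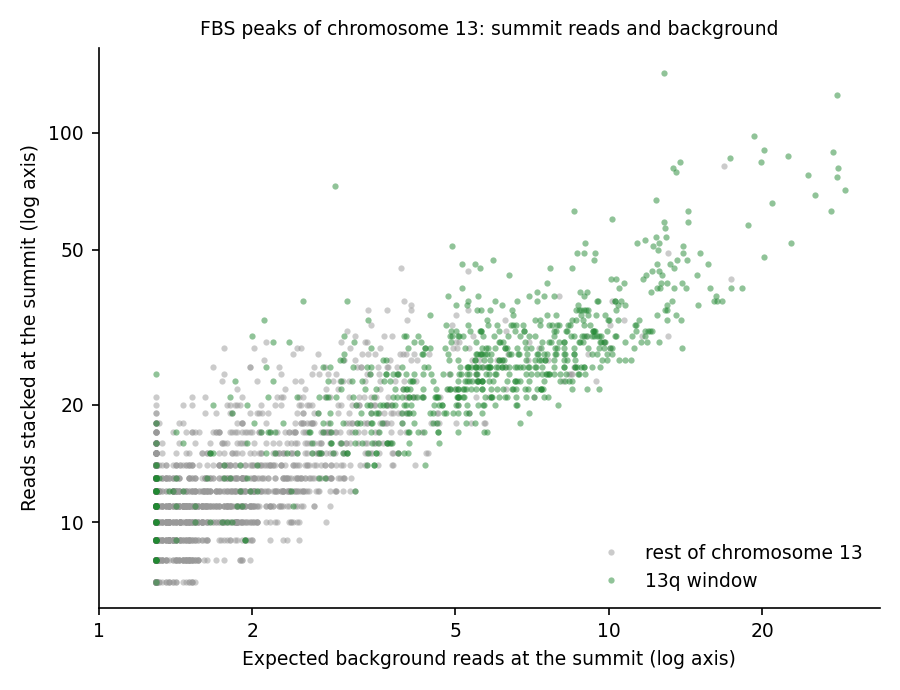
Reads stacked at the summit (vertical log axis) against the background reads expected there (horizontal log axis) for the FBS peaks of chromosome 13, with the window's peaks in green and all others in grey. Window peaks extend to the upper right, with a median expected background of 5.67 reads against 1.29 on the rest of the chromosome; the point with 73 reads at a low background is the peak with the highest fold enrichment of the window.

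Peaks of the CSS and DHT lists were then matched by an overlap of at least 1 bp. In the window 71 of 102 CSS peaks overlapped a DHT peak (69.6%, interval 59.7 to 78.3%), against 56.8% of all CSS peaks. In the other direction 73 DHT peaks overlapped a CSS peak and 36 did not, a share of 67.0% (57.3 to 75.7%) against 63.9%, which lies inside the interval. Sharing was more frequent among peaks of higher q significance, in the window as in the whole lists. Of the 34 CSS peaks with the highest q significance 32 had a DHT partner, and of the 34 with the lowest 13 did (94.1% and 38.2%, against 86.3% and 28.8% over the whole list). In DHT 36 of the top 37 and 16 of the bottom 36 had a CSS partner (97.3% and 44.4%, against 87.8% and 42.3%). Where CSS and DHT peaks overlapped, the median distance between summits was 42 bp.

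More of the CSS and DHT peaks met an FBS peak here than in the genome at large. An FBS partner was found for 58 of 102 CSS peaks (56.9%, 46.7 to 66.6%), against 44.1% of the list. In DHT it was found for 74 peaks (67.9%, 58.3 to 76.5%), against 48.2%. Since FBS peaks cover 7.64% of this window, which was selected for them, the denser FBS peaks are part of these 2 shares, and how large a part was not tested. From the FBS side the share was low: 92 of 750 peaks (12.3%, 10.0 to 14.8%) overlapped a CSS or DHT peak, against 17.2% of the list. On the chromosome 6 and X stretches it was 6.84% and 4.47%. Of the 250 FBS peaks of the window with the highest −log10 q, 45 had a CSS or DHT partner, and of the highest 41623 in the whole list 29.6% did.

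Merging overlapping peaks gave 793 regions. All 3 lists had a peak in 47 of them (5.93%, against 7.67% of the regions of the whole series). Only FBS had one in 658 (83.0%, against 68.4%), a share that the choice of the window raises. All classes are shares of the same total, so that choice also lowers the shares of the other classes. Lower shares here are therefore not read as less sharing between lists. CSS and DHT without FBS shared 23 regions (2.90%, against 5.97%), DHT and FBS without CSS 25 (3.15%, against 2.61%), and CSS and FBS without DHT 9 (1.13%, against 2.69%). CSS alone had 20 (2.52%, against 7.57%) and DHT alone 11 (1.39%, against 5.10%).

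**Figure D4:**
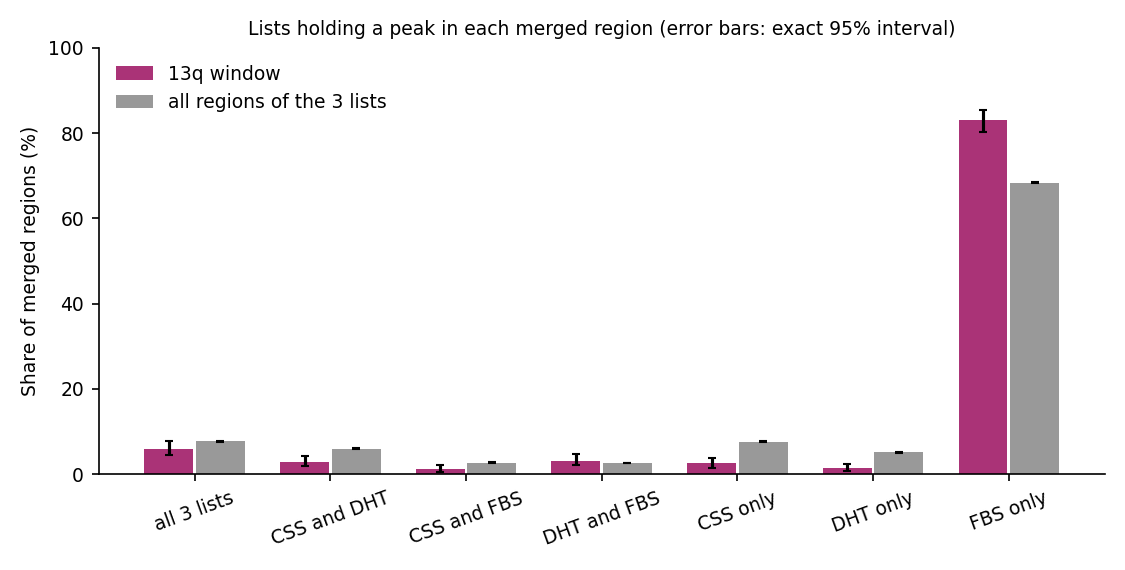
Share of merged regions in percent (vertical axis) by the lists that hold a peak in them, for the 793 regions of the 13q window and for all regions of the series, with exact 95% intervals for counting error. Regions with a peak in FBS only make up 83.0% in the window and 68.4% in the series, and those with a peak in CSS only 2.52% and 7.57%. The window was chosen for FBS peaks, which raises the FBS-only share and so lowers the others.

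The difference in depth was set against these counts by scaling the reads at each peak and around it in proportion. The factors from FBS to CSS and DHT were 0.197 and 0.148, the ratios of the reads expected at a summit at the genome mean, which include the different fragment lengths of the lists. Of the 684 FBS peaks of the window without a CSS partner, 94 (13.7%) would reach the lowest −log10 p in the CSS list, 3.55, at the depth of that list. Of the 66 with a partner, 25 (37.9%) would. At the depth of the DHT list 32 of 668 FBS peaks without a DHT partner (4.79%) would reach its lowest value. Of the 82 with a DHT partner, 23 (28.0%) would. Most FBS peaks that do have a partner thus also fell short after scaling, so a peak that falls short cannot be called undetectable in the shallower lists by this measure, and the part of depth in the FBS-only peaks was not settled.

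In the other direction, 44 CSS peaks and 35 DHT peaks of the window had no FBS partner, among them the strongest CSS site. The CSS peak at chr13:112170147-112170657 had 86 reads at its summit, a fold enrichment of 19.9 and a −log10 q of 81.3, and ranked 8th of all 37782 CSS peaks. The DHT peak there, chr13:112170214-112170601, had 51 reads, a fold enrichment of 14.4 and a −log10 q of 41.2, and ranked 16th in its list. The FBS list had no peak within 12048 bp of the CSS peak. Scaled up by the matching factors, 5.07 and 6.74, the CSS summit would correspond to 436 reads and the DHT summit to 344, while the highest FBS summit anywhere in the window had 142. All 44 CSS and 35 DHT peaks without an FBS partner would, so scaled, reach the lowest −log10 p of the FBS list, 2.9. All 58 CSS and 74 DHT peaks with an FBS partner would too, so reaching that limit does not set this site apart. A site among the leading ones of both cultures in stripped serum, with vehicle and with DHT, had no peak in the FBS list. It lies in the gap between the FBS summits at chr13:112157749 and chr13:112182914, which at 25.2 kb is the second widest in the dense block after one of 29.2 kb from chr13:112226237 to chr13:112255413. The same gap holds the strongest peak listed in CSS alone, chr13:112159772-112160108, with 24 reads, a fold enrichment of 10.5 and a −log10 q of 17.9. The FBS reads at this site were not analysed here.

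The other leading CSS and DHT peaks without an FBS partner were weaker, and each lay nearer to an FBS peak. The next in CSS, chr13:111473350-111473876 (28 reads, −log10 q 19.6), ended 20 bp from an FBS peak, so its status turns on the overlap rule. The third, chr13:111258497-111259579 (31 reads, 18.7), had its nearest FBS peak at 1267 bp. In DHT the next were chr13:111182453-111182916 (9.21 and 17.8), at 4862 bp from an FBS peak, and chr13:110384910-110385232 (9.02 and 15.5), at 1099 bp. The 2 CSS peaks overlapped a DHT peak, and the 2 DHT peaks a CSS peak.

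The leading DHT site was shared by all 3 lists. Fold enrichment and q depend on the depth of each library, so they rank peaks within a list. Values of different lists are set side by side here and below as description only. At chr13:110141256-110141775 the DHT peak had 68 reads, a fold enrichment of 19.0 and a −log10 q of 63.8, and ranked 8th in the list. The CSS peak had 53 reads, a fold enrichment of 16.5 and a −log10 q of 47.2, and ranked 32nd. The FBS peak had 51 reads, 8.78 and 29.0, and ranked 231st. With 4.51 times the depth of CSS, the FBS library thus stacked about as many reads here as the CSS libraries did.

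At the leading FBS site the raw reads at the summit were highest in FBS, which is also the deepest list. At chr13:111805490-111806812, 1323 bp wide, the FBS peak had 142 reads at its summit, a fold enrichment of 10.3 and a −log10 q of 88.3, and ranked 16th of 124868. The CSS peak there had 45 reads, 10.1 and 28.7. The DHT peak had 41 reads, 11.5 and 28.8. Fold enrichment thus ran from 10.1 to 11.5 in the 3 lists, while the −log10 q of CSS and DHT differed little and that of FBS was higher. The reads in the surrounding 10 kb were 13.9, 13.8 and 9.92 times the genome mean in CSS, DHT and FBS.

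The FBS peak at chr13:110076338-110076725 had the highest fold enrichment of the list in the window, 19.0 with 73 reads and a −log10 q of 68.6. It ranked 5th by fold enrichment and 22nd by q in the whole list. Its surroundings held 2.24 times the genome mean, below the FBS median of the window, 4.38. The CSS peak there had 16 reads and a fold enrichment of 9.53, and the DHT peak 14 reads and 10.0. Of the 5 leading FBS peaks by q it had the lowest background. The last 3 of these 5 had more reads around them and lower enrichment: chr13:111365550-111365924 had 125 reads at a fold enrichment of 4.33, chr13:111358023-111358627 had 84 at 5.73, and chr13:111567536-111568346 had 98 at 4.88. Their surroundings held 21.7, 10.7 and 14.9 times the genome mean.

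A further pair of sites completes the top 5 of the CSS list. At chr13:112283679-112284151 the CSS peak had a fold enrichment of 13.6 and a −log10 q of 29.3, ranking 171st. The DHT peak there had 8.64 and 16.3, and the FBS peak 2.66 and 4.88, at rank 52776. At chr13:111358043-111358777 the CSS peak had 11.5 and 26.9 and the DHT peak 11.4 and 23.7. In DHT the top 5 also held chr13:111213495-111214451 (10.6 and 29.4) and chr13:111109100-111109689 (10.5 and 24.3). The CSS peaks at these 2 sites had fold enrichments of 8.91 and 8.49, and the FBS peaks 4.30 and 3.20. Every one of the 5 leading peaks of each list had a partner in both other lists, except the CSS and DHT peaks at chr13:112170147-112170657.

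Of the 10 leading regions with a peak in all 3 lists, ordered by the sum of their ranks by q, the first was that at chr13:111805490-111806812 and the second chr13:110141164-110141900. In 9 of the 10, all but the first, the FBS fold enrichment was the lowest of the 3 values. The lists differ in depth and their values are set side by side as description only. Whether binding was weaker in full serum was not tested. The widest was the fourth, chr13:111766790-111768778, where 2 CSS, 2 DHT and 3 FBS peaks merged into 1989 bp, with fold enrichments of 9.82, 9.42 and 5.70. At the seventh, chr13:111719084-111720162, the values were 10.0, 11.6 and 6.71, with summits within 86 bp. At the eighth, chr13:110790259-110791369, they were 11.3, 10.5 and 5.46. The tenth, chr13:111267081-111268755, held the widest FBS peak of the window, 1530 bp, with values of 9.65, 7.31 and 4.19. Over all 47 such regions the summits of the 3 lists spanned a median of 166 bp, and in 15 they fell within 100 bp. In 44 of the 47 the reads per 10 kb were at least 2 times the genome mean in every list. The same values over the shared regions of the whole series are not given here, so these counts are not read as particular to the window.

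**Figure D5:**
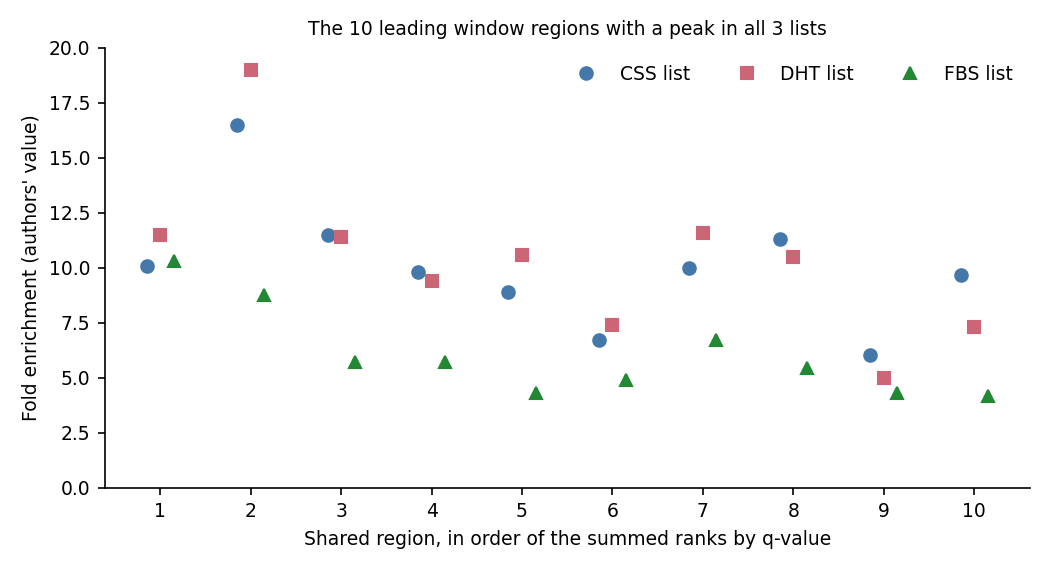
Fold enrichment as the authors gave it (vertical axis) for the 10 leading regions of the window with a peak in all 3 lists, in order of their summed ranks by q (horizontal axis), with 1 marker per list. The FBS marker is lowest in every region but the first, and the second region reaches 19.0 in DHT and 16.5 in CSS. Fold enrichment depends on library depth, so heights of different lists do not compare binding strength.

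The widest CSS and DHT peaks lay at 1 place. The CSS peak at chr13:111566478-111568245 was 1768 bp wide and the DHT peak at chr13:111566551-111568219 was 1669 bp. Their fold enrichments were 6.71 and 7.39, at 21.8 and 27.2 times the genome mean in the surrounding 10 kb.

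The densest reads of the CSS and DHT libraries sat elsewhere, at places picked out here after their values were seen. At chr13:110436793-110437111 the CSS list counted 653 reads in 10 kb, 48.9 times its genome mean, and the DHT peak at chr13:110436723-110437004 had 562, 58.0 times its mean. The FBS peak at chr13:110436617-110437100 had 1182, 19.6 times. The fold enrichments, which set a summit against these same surroundings, were 2.45, 2.64 and 2.65. About 2 kb on, the CSS peak at chr13:110439152-110439646 had 46 reads at its summit and a fold enrichment of 3.61. A second such cluster began near the third FBS site by q: 4 CSS peaks from chr13:111364668 to chr13:111367344 had 25.6 to 30.1 times the genome mean, 4 DHT peaks from chr13:111364724 to chr13:111368385 had 39.4 to 44.2 times, and 6 FBS peaks from chr13:111364547 to chr13:111368734 had 21.1 to 22.5 times. At both clusters the rise over the mean was larger in CSS and DHT than in FBS, and the cause was not tested.

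Peaks listed in CSS alone or DHT alone were mostly modest within their own lists. After chr13:112159772-112160108, the strongest CSS-only peaks were chr13:110950984-110951220 (13 reads, fold enrichment 8.30, −log10 q 9.93) and chr13:110965788-110966022 (15 reads, 5.80 and 6.89). The first of them lay 250 bp from an FBS peak. The strongest DHT-only peaks were chr13:111857269-111857468 (11 reads, 6.77 and 6.94), chr13:111800046-111800280 (9 reads, 6.78 and 6.64) and chr13:109681288-109681486 (8 reads, 6.54 and 6.24). The second of these lay 59 bp from an FBS peak.

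The strongest peaks listed in FBS alone had more reads at their summits. The FBS list rests on 4.51 times the reads of CSS and 6.21 times those of DHT, so these counts do not compare strength between lists. They were chr13:109678610-109678923 (37 reads, fold enrichment 10.8, −log10 q 25.7), chr13:109843209-109843621 (33 reads, 10.9 and 23.6) and chr13:111534159-111534507 (46 reads, 7.63 and 23.3). The first 2, both between 109.5 and 109.9 Mb, had 1.94 and 1.63 times the genome mean around them, and the third 3.99 times. Their nearest DHT peaks lay at 2364, 1712 and 6854 bp.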

How the data were processed

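The files are 3 narrowPeak lists on hg19, 1 per condition, called from 5 libraries. Per the submitters' processing notes, the tools included MACS2 2.0.10.20131216 for peaks, SAMtools 0.1.18 and the aligner BWA 0.7.2-r351. The sources used here do not state the control library, the thresholds, the genome size or how 2 libraries of a condition became 1 list. Per peak, the authors deposited a score (not used for results), a fold enrichment (a ratio), and −log10 p and −log10 q values.

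Window members had their summit (start plus offset) in the window, counted from 1 in the text. The members, lists and comparison stretches were chosen with earlier results of these data known, and the division into stretches, the read counts and the densest-read sites were chosen after the values were seen. Named peaks were the 5 with the highest −log10 q per list, the 3 strongest without partners, the widest, and the 10 shared regions with the best summed ranks.

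Summit reads n and expected reads were solved from the deposited fold, (n + 1)/(expected + 1), and the Poisson tail behind the −log10 p, to within 0.001 for 100% of peaks; for 164 CSS, 257 DHT and 111 FBS peaks another whole n also lay within that error, and the closest was taken. Expected reads above the floor were whole reads per 10 kb for 100% (tolerance 0.02), taking the narrowest peak (191, 198 and 215 bp) as the fragment length. On simulated data 100% were recovered. A control scaled by another factor would change that step. Overlap counts were checked with bedtools 2.31.1. Python 3.11.15, pandas 2.3.3 and scipy 1.17.1 were used. Read totals per library were not analysed here. Alternatives were other q and fold minimums, equal list lengths, bins, percentiles and overlap rules. Sequence at peaks and gene annotation on hg19 were not used here.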

Additional observations from a re-analysis of the deposited data

How the results depend on the processing

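Among the alternatives run, 56 left the value within a set range and 56 moved it, and 15 of them were chosen after seeing the data. The range was 1.5 times the main value for counts and the interval for shares and ratios. For borders and length it was a fixed distance, and for the strongest site the same site. For medians and reads per 10 kb it was the quartiles of the peaks, a loose limit. A turned direction could be called only for the ratio of FBS to CSS shares, where 0 alternatives turned it. At a −log10 q of at least 5 the window held 71 DHT and 486 FBS peaks, or 0.424% of CSS, 0.390% of DHT and 0.952% of FBS peaks, and FBS partners were found for 43.6% of CSS and 52.1% of DHT peaks. At 10 it held 31, 26 and 125 peaks (0.565%, 0.644% and 2.04%), the FBS share was 3.60 times the CSS share, and partner shares were 80.8% (DHT in CSS), 45.2% (CSS in FBS), 53.8% (DHT in FBS) and 16.0% (FBS in either). At a fold enrichment of at least 5 the window held 159 FBS peaks, shares were 0.331% of CSS and 0.397% of FBS, and their ratio fell to 1.20. With equal numbers of top peaks it held 398 FBS peaks (1.17%), the ratio was 4.02, and partner shares were 40.4%, 47.7% and 15.6% for CSS in FBS, DHT in FBS and FBS in either. Within the density-bordered block the FBS share was 0.552%. The DHT share over the CSS share, whose interval includes no difference, was 1.18 with all peaks and 0.919 under the minimum of 5 on −log10 q.

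The block began at 109002170 and ended at 112743110 (3.74 Mb) with 250 kb bins, at 108806203 and 112743110 (3.94 Mb) at the 90th percentile, ended at 111998525 (2.40 Mb) at the 99th, began at 108828924 (3.46 Mb) with equal top peaks, and ran from 109717432 to 112743110 (3.03 Mb) by reads. Summits within 100 bp gave partner shares of 51.0% (CSS in DHT), 47.7% (DHT in CSS), 24.5% (CSS in FBS), 32.1% (DHT in FBS) and 5.87% (FBS in either). An overlap of 50% of both peaks gave 26.5%, 27.5% and 5.33% for the last 3, and peaks within 500 bp gave 68.6% for CSS in FBS and 14.9% for FBS in either. Ranked by fold enrichment, the strongest FBS site was chr13:110076338-110076725. Taking the lowest peak of each 100 kb bin, reads per 10 kb were 2.81, 2.68 and 1.72 times the genome mean in CSS, DHT and FBS. The cause of these shifts was not tested, except that stricter matching and minimums keep fewer peaks by construction. Partner shares under the alternatives were computed for the window only. Whether the window still exceeded the whole lists under them was not tested.

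No paired analysis was possible because each condition has 1 peak list, which also means that leave-one-out values were not computed. Alternatives on sequence at summits and on gene starts were not run. Scaling the reads did not settle how far depth limits the CSS and DHT lists.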
